A study of Mus musculus with 24 samples.

Results

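The interferon response and antigen presentation genes described here were 35 genes fixed by name, and all 35 were found once each among the 55416 gene rows of the count table. Of these, 23 belong to the interferon response and 12 to antigen presentation, and 34 had enough reads to be tested. RNA came from the cerebellum of 24 neonatal C57BL/6J mice, an inbred strain, 12 in the Ethanol group and 12 in the Control group, which the labels call Vehicle. The Ethanol pups had been gavaged with ethanol in an intralipid emulsion from P4, the Control pups with intralipid in which water took the place of ethanol, and tissue was taken at P5 or P6. The labels give treatment and animal number but not age, sex or litter, so both ages and sexes stand together in each group, and the labels name the tissue as Brain. By the study's methods the animals came from 6 litters, each giving a male and a female per treatment. The labels do not say which animals shared a litter, so p-values treat each animal as separate.

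Interferons are secreted proteins that bind receptors on nearly all cells, where JAK kinases phosphorylate STAT proteins. Stat2 and Irf9 act together in the ISGF3 complex, which binds the interferon-stimulated response element (ISRE) of antiviral genes, while the gamma-activated site (GAS) serves interferon gamma signaling. Interferon also raises antigen presentation: the immunoproteasome cuts proteins into peptides, the Tap1 and Tap2 transporter carries them into the endoplasmic reticulum, and MHC class I with B2m displays them at the surface. In brain, microglia, border macrophages and endothelial cells express much of this program, and MHC class II is largely a property of macrophages, microglia and dendritic cells.

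The promoters of the members are shown because the ISRE and the GAS are the DNA elements through which interferon acts on this group. The RefSeq promoter table (GRCm38.p6) held 27 of the 35 members; it had no entry for Usp18, Ifi27, Mx2, Mx1, Tap2, Nlrc5, Cd74 and H2-Ab1. In the 250 bases before the start, an ISRE core (GAAANNGAAA, searched on both strands, so also as its reverse complement) was present in 8 of 27 members, 29.6%, against 3.46% of all 27025 genes in the table (2.98% of 32851 promoters, since some genes have several). A GAS (TTCNNNGAA, the same on both strands) was present in 6 of 27, 22.2%, against 8.13% of all genes (7.02% of promoters), and the search counted overlapping matches. The GAS members were Bst2, Eif2ak2, Ifit2, Irf1, Oas1a and Psmb8. A match describes letters in a window and was not tested as a binding site. The stretches around the matches are given 5′ to 3′ on the strand of the gene, with the matched ISRE cores and GAS in capitals.
Isg15, chr4:156200845-156200926, minus strand: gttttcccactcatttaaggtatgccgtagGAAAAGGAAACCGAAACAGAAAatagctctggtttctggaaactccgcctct
Ifit1, chr19:34640755-34640843, plus strand: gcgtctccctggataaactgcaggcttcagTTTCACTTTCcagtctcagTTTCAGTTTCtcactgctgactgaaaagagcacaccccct
Ifit3, chr19:34583343-34583446, plus strand: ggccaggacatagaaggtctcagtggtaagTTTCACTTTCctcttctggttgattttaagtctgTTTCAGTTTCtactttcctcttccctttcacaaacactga
Rsad2, chr12:26456533-26456602, minus strand: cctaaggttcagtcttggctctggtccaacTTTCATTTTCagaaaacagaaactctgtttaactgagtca
Oas1a, chr5:120907526-120907653, minus strand: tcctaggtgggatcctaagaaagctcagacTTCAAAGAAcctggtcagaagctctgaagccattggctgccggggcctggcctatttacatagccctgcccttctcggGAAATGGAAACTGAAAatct
Bst2, chr8:71537557-71537638, minus strand: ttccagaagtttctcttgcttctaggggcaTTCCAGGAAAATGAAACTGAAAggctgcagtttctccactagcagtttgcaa
Stat2, chr10:128270248-128270315, plus strand: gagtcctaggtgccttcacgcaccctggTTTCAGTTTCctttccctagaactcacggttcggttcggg
B2m, chr2:122147518-122147587, plus strand: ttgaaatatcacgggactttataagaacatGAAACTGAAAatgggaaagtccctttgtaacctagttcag
Ifit2, chr19:34550444-34550491, plus strand: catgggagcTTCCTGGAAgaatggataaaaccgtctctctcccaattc
Isg15 held 3 overlapping ISRE cores, and Ifit1, Ifit3, Oas1a and Bst2 held 2 each. Of the 6 members that passed the test between Ethanol and Control (Irf9, Ifitm3, Adar, Tap1, Trim25 and Ifit2), 0 had an ISRE core in this window, and Ifit2 had a GAS.

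Ethanol was followed by changes in 6 of the 34 tested members, in both directions. Irf9, the DNA-binding subunit of ISGF3, Ifitm3, a membrane protein that blocks virus entry, and Adar, an enzyme that edits double-stranded RNA, were higher. Tap1, a subunit of the peptide transporter, Trim25, a ubiquitin ligase of RNA sensing, and Ifit2, an RNA-binding antiviral protein, were lower. The changes were small, with log2 fold changes between -0.33 (Tap1) and 0.34 (Ifitm3). The test was edgeR's quasi-likelihood F test over 17736 genes, with p-values adjusted over all of them (Benjamini-Hochberg) and called under 0.05. Of all genes tested 14.9% were called, 9.07% higher and 5.8% lower in Ethanol, so 3 higher and 3 lower among 34 members is a share near that of all genes. The median log2 fold change of the members was 0.02, against -0.01 over all genes. A further 28 members did not pass, and 8 members, the 6 called ones included, had an unadjusted p under 0.05. Levels are given as CPM, read counts scaled to a common library size after TMM correction. They are not corrected for gene length and are not compared between genes. In bulk tissue, fewer cells of a type and less RNA per cell cannot be told apart.

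**Figure D1:**
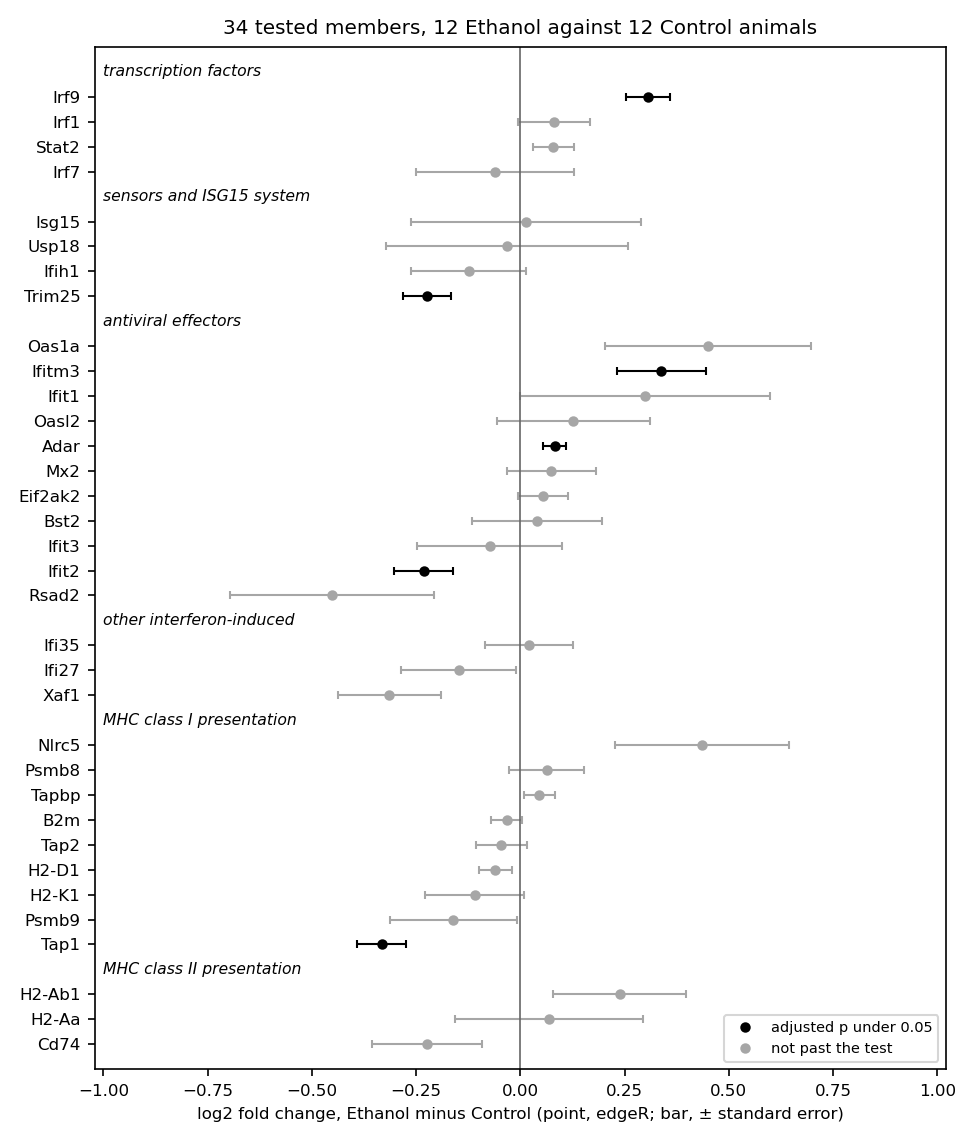
Log2 fold change of each of the 34 tested members (Ethanol minus Control, x axis, points) with its standard error (bars), grouped by role, from 12 animals per group; black points had an adjusted p under 0.05. Irf9, Ifitm3 and Adar lie to the right of 0 and Tap1, Trim25 and Ifit2 to the left, while the widest bars belong to low genes such as Ifit1, Usp18 and Isg15.

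Depth was 26982564 to 38804942 counts per library, and TMM factors ran from 0.9822 to 1.013. No library repeated another: over 276 pairs the lowest mean chi-square per gene was 5.25, where 1 would be counting error alone. A set of 4 libraries (Ethanol X4568, Ethanol X4766, Control X4761 and Control X4770) was nearly free of Ttr, a choroid plexus transcript, at 1.15 to 3.57 CPM against 322.2 to 5049 CPM in the other 20, and called results are given without them. Cerebellar neuron markers such as Car8 and Atoh1 were present in every library (summed level 3067 to 4090 CPM). Animals were also grouped into 6 runs of 4 consecutive animal numbers, 2 Ethanol and 2 Control each. This has the size and makeup that the methods give for a litter, but the labels do not say that a run is one. With runs as a block in the fit the same 6 members were called, with adjusted p from 3.57e-05 (Irf9) to 0.0254 (Ifit2).

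Among the transcription factors, 1 of 4 members changed. Irf9 was at 12.8, 15.2 and 17.6 CPM (lowest, median and highest) in Control and at 16.6, 18.8 and 22.1 CPM in Ethanol. Every one of the 12 Ethanol values exceeded the Control median and 9 exceeded the highest Control value, so the groups overlapped only between 16.6 and 17.6 CPM. Group means were 15.5 ± 1.34 CPM in Control and 19.2 ± 1.80 CPM in Ethanol (SD, n = 12 each). The log2 fold change was 0.31 (SE 0.05) with an adjusted p of 0.000259 by edgeR. Ethanol was higher in 6 of 6 runs, by 0.18 to 0.40 on the log2 scale.

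Stat2, the transactivating partner of Irf9, was at 38.9, 41.1 and 52.1 CPM in Control and at 40.4, 44.3 and 51.0 CPM in Ethanol. The ranges nearly coincided, with a log2 fold change of 0.08 (SE 0.05) and an adjusted p of 0.304 by edgeR. Stat2 was the one member of 34 that differed between runs of animal numbers (adjusted p 0.00732), with run means from 40.4 to 48.9 CPM. Over all genes 6.5% differed between runs.

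The balance of Irf9 and Stat2 was compared directly, a comparison chosen after their values were seen. The log2 ratio of Irf9 to Stat2 was -1.46 ± 0.14 in Control and -1.23 ± 0.20 in Ethanol (SD, n = 12 each). The difference was 0.23, the ratio exceeded the Control median in 9 of 12 Ethanol animals, and the adjusted p was 0.00717 over 3 ratios (two-sided permutation test, 100000 resamples).

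The other factors did not pass. Irf1, the early factor of interferon gamma signaling, was at 4.50 ± 0.588 CPM in Control and 4.75 ± 0.794 CPM in Ethanol (adjusted p 0.587 by edgeR). Irf7, the amplifier of type I interferon production, was at 1.52 ± 0.324 CPM in Control and 1.47 ± 0.738 CPM in Ethanol (adjusted p 0.874 by edgeR). Without the animal X4674, described further on, the log2 fold change of Irf7 went from -0.06 to -0.25.

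Among the sensors and the ISG15 system, Trim25 fell. It was at 14.8, 17.9 and 18.8 CPM in Control and at 12.5, 15.2 and 17.8 CPM in Ethanol. None (0) of the 12 Ethanol animals was above the Control median and 5 were below the lowest Control animal. The log2 fold change was -0.22 (SE 0.06) with an adjusted p of 0.00967 by edgeR, and Ethanol was lower in 6 of 6 runs, by 0.13 to 0.33 on the log2 scale. Trim25 is known for attaching ubiquitin chains to the RNA sensor RIG-I. Ifih1 (MDA5), the sensor of long double-stranded RNA, was at 2.53 ± 0.603 CPM in Control and 2.32 ± 0.607 CPM in Ethanol, with an adjusted p of 0.608. Isg15, the ubiquitin-like modifier, and Usp18, the protease that removes it, had log2 fold changes of 0.01 (SE 0.28) and -0.03 (SE 0.29), and neither passed.

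Of the 12 antiviral effectors, 11 were tested, with 2 higher and 1 lower. Ifitm3 was at 8.70, 9.64 and 12.3 CPM in Control and at 9.56, 11.2 and 21.3 CPM in Ethanol. The Control median was exceeded in 11 of 12 Ethanol animals but the highest Control value in only 4. Group means were 10.04 ± 1.17 CPM in Control and 12.7 ± 3.45 CPM in Ethanol, and the log2 fold change was 0.34 (SE 0.11) with an adjusted p of 0.0335 by edgeR, and Ethanol was higher in 6 of 6 runs. Part of the size lay in Ethanol X4760, the library at 21.3 CPM: without it the log2 fold change was 0.24 and the adjusted p 0.0517. Without the 4 libraries low in Ttr the adjusted p was 0.0573.

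Adar was at 98.7, 102 and 113 CPM in Control and at 100.3, 109 and 117 CPM in Ethanol. The groups overlapped over most of their range, although the Control median was exceeded in 11 of 12 Ethanol animals. The log2 fold change was 0.08 (SE 0.03) with an adjusted p of 0.0466 by edgeR. This call was the least firm of the 6: it was lost in 18 of 24 fits that left out 1 animal, in 6 of 6 that left out 1 run, and without the libraries low in Ttr (adjusted p 0.131).

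Ifit2 was at 9.76, 12.4 and 13.9 CPM in Control and at 7.06, 10.6 and 11.9 CPM in Ethanol. All 12 Ethanol animals were below the Control median and 3 were below the lowest Control animal. The log2 fold change was -0.23 (SE 0.07) with an adjusted p of 0.0275 by edgeR. Ethanol was lower in 5 of 6 runs and higher by 0.15 on the log2 scale in the remaining one, and without the libraries low in Ttr the adjusted p was 0.0669.

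The relatives of Ifit2 did not move with it past the test. Ifit1, which binds RNA lacking the normal cap methylation, had a log2 fold change of 0.30 (SE 0.30), and Ifit3, its binding partner, of -0.07 (SE 0.17). Without X4674 these were 0.03 and -0.18. Ifit1 and Ifit3 lie beside near-identical relatives in the mouse genome, so that reads of one can be assigned to another.

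The other antiviral effectors are given by their values. Rsad2 (viperin), an enzyme that makes a chain-terminating nucleotide, was at 0.977 ± 0.334 CPM in Control and 0.721 ± 0.445 CPM in Ethanol, a log2 fold change of -0.45 (SE 0.24) with an adjusted p of 0.228. Oas1a, of the family whose 2-5A product activates RNase L, had a log2 fold change of 0.45 (SE 0.25) with an adjusted p of 0.236, and of 0.26 without X4674. Its paralogs also share sequence, so its count is uncertain. Eif2ak2 (PKR), the kinase that stops translation on double-stranded RNA, Bst2 (tetherin), which holds budding virus at the cell surface, Oasl2 and Mx2 had log2 fold changes between 0.04 and 0.13, and 0 of them passed. Without X4674 Oasl2 went from 0.13 to -0.10 and Bst2 from 0.04 to -0.10, and Mx2 from 0.07 to 0.04.

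Mx1 did not reach the filter on low counts, with 0 to 21 counts per library. The C57BL/6 strain is known to carry a deletion in Mx1, and RefSeq lists the gene as a transcribed pseudogene.

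Of the other interferon-induced members, 0 of 3 passed. Ifi27, a mitochondrial protein, was at 4.44, 7.15 and 10.01 CPM in Control and at 3.88, 6.10 and 9.77 CPM in Ethanol. Xaf1, a partner of the apoptosis inhibitor XIAP, was at 1.18, 1.67 and 2.03 CPM in Control and at 0.862, 1.34 and 2.04 CPM in Ethanol. Xaf1 was below the Control median in 11 of 12 Ethanol animals and lower in Ethanol in 6 of 6 runs, with a log2 fold change of -0.31 (SE 0.12) and an adjusted p of 0.0868 by edgeR. Ifi35 had a log2 fold change of 0.02 (SE 0.11).

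**Figure D2:**
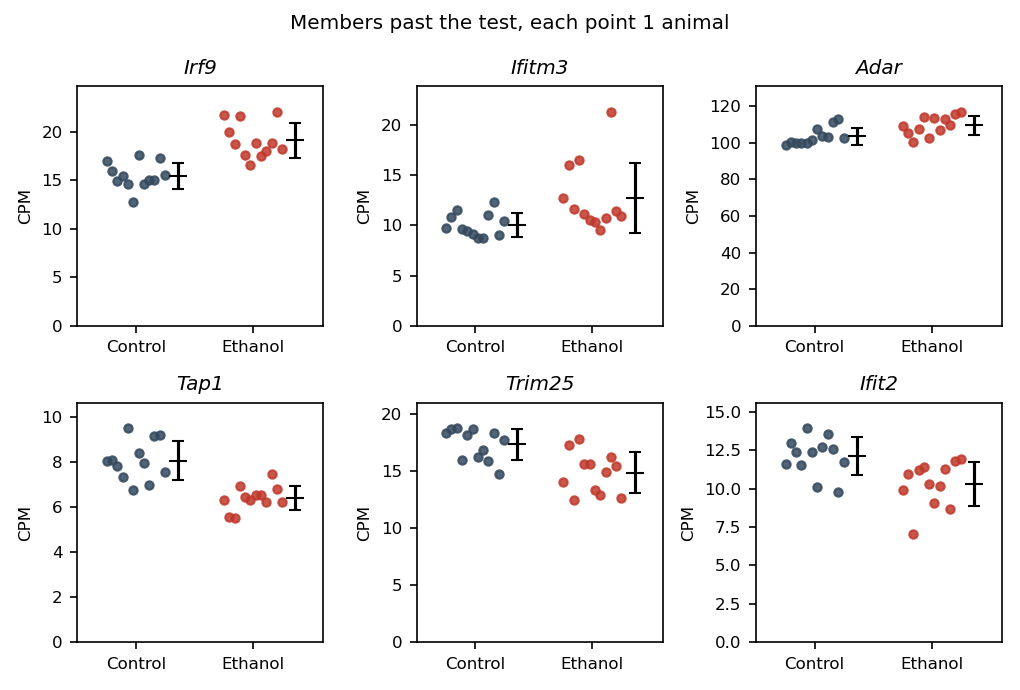
CPM (y axis, from 0) of the 6 members past the test in each of 12 Control and 12 Ethanol animals (points), with the group mean and SD beside them. For Irf9, 9 Ethanol animals lie above all Control animals, for Tap1 9 lie below them, and for Ifitm3 1 Ethanol animal stands at 21.3 CPM.

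In the MHC class I pathway, Tap1 fell and the other 8 members did not pass. Tap1 was at 6.78, 8.01 and 9.52 CPM in Control and at 5.54, 6.39 and 7.48 CPM in Ethanol. All 12 Ethanol animals were below the Control median and 9 were below the lowest Control animal. Group means were 8.08 ± 0.871 CPM in Control and 6.42 ± 0.535 CPM in Ethanol, and the log2 fold change was -0.33 (SE 0.06) with an adjusted p of 0.000393 by edgeR. Ethanol was lower in 6 of 6 runs, by 0.23 to 0.44 on the log2 scale.

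The subunit it pairs with did not show this. Tap2 was at 5.62 ± 0.696 CPM in Control and 5.44 ± 0.349 CPM in Ethanol, a log2 fold change of -0.05 (SE 0.06) with an adjusted p of 0.689. The log2 ratio of Tap1 to Tap2 went from 0.53 ± 0.19 in Control to 0.24 ± 0.14 in Ethanol, a difference of -0.29 with an adjusted p of 0.00102 (two-sided permutation test over samples, 3 ratios chosen after values were seen). In 12 of 12 Ethanol animals it was below the Control median.

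Tap1 shares its promoter with Psmb9, an immunoproteasome subunit, and the start sites lie 225 bases apart and point away from each other. The stretch between them, which held neither an ISRE core nor a GAS, is given in lower case on the strand of Tap1.
Tap1/Psmb9, chr17:34187331-34187555, plus strand: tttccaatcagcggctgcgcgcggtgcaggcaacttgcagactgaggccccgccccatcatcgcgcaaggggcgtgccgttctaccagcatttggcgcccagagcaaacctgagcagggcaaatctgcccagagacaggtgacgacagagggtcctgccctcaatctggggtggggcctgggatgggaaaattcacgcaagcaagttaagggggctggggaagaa
Psmb9 was at 1.06 ± 0.182 CPM in Control and 0.950 ± 0.289 CPM in Ethanol, with 6 of 12 Ethanol animals on either side of the Control median. Its log2 fold change was -0.16 (SE 0.15) with an adjusted p of 0.530, and the log2 ratio of Tap1 to Psmb9 differed by -0.12 (adjusted p 0.428, permutation test). With 16 to 44 Psmb9 counts per library, the SE of Psmb9 did not separate no change from a change of the size seen in Tap1.

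The class I chains did not pass. H2-D1, a classical class I heavy chain, was at 57.5, 61.7 and 74.7 CPM in Control and at 53.5, 59.3 and 68.3 CPM in Ethanol, a log2 fold change of -0.06 (SE 0.04) with an adjusted p of 0.333. H2-K1, the other classical chain, had a log2 fold change of -0.11 (SE 0.12), and B2m, the light chain of all class I molecules, of -0.03 (SE 0.04). H2-D1, H2-K1 and the H2-Q genes are near-identical in places, so reads may be split among them. Tapbp (tapasin), which holds class I at the transporter, had a log2 fold change of 0.05 (SE 0.04), and Psmb8, an immunoproteasome subunit, of 0.06 (SE 0.09). Nlrc5, the transactivator of class I genes, was at 0.463 ± 0.115 CPM in Control and 0.625 ± 0.302 CPM in Ethanol, with an adjusted p of 0.167. Without X4674 the log2 fold change of Nlrc5 went from 0.44 to 0.27 and that of Psmb8 from 0.06 to 0.02.

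The 3 MHC class II members did not pass. Cd74, the invariant chain, was at 0.978, 1.31 and 1.77 CPM in Control and at 0.699, 1.04 and 1.83 CPM in Ethanol (log2 fold change -0.22, SE 0.13, adjusted p 0.277 by edgeR). H2-Ab1 and H2-Aa, the chains of the class II dimer, had log2 fold changes of 0.24 (SE 0.16) and 0.07 (SE 0.23). At 14 to 67 counts of H2-Ab1 and 4 to 21 of H2-Aa per library, only large changes could be seen.

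**Figure D3:**
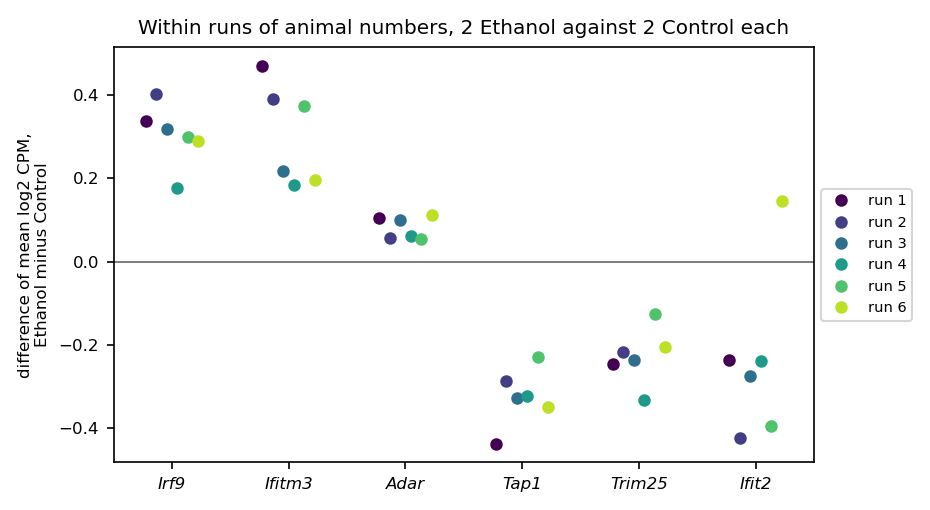
Difference of mean log2 CPM between 2 Ethanol and 2 Control animals (y axis) within each of 6 runs of consecutive animal numbers (colored points), for the 6 called members. Every run lies above 0 for Irf9, Ifitm3 and Adar and below 0 for Tap1 and Trim25, and 1 run of Ifit2 lies above 0.

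A single Ethanol animal stood apart at the high end of the interferon-stimulated members. Ethanol X4674 held the highest value of all 24 libraries in 15 of 35 members, and the lowest in 0. The 15 comprised 13 of the 23 interferon members (Isg15, Usp18, Mx1, Ifit1, Ifit3, Oasl2, Oas1a, Rsad2, Irf7, Bst2, Ifih1, Xaf1 and Ifi35) and 2 of the 12 antigen presentation members (Nlrc5 and Psmb8). Next came Ethanol X4760 with 7 members and Control X4768 with 4. The lowest value was held most often by Ethanol X4766, in 9 of 35 members, then by Ethanol X4568 and Ethanol X4673, in 4 each. X4766 and X4568 are among the 4 libraries low in Ttr. The share of all genes lowest in these libraries was not taken. X4674 was singled out after its values were seen, so the following is a description with no test.

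Isg15 stood at 2.67 CPM (85 counts) in X4674, whereas the other 11 Ethanol animals lay between 0.346 and 0.844 CPM and no Control animal was above 1.18 CPM. This was 4.93 times the median of the other Ethanol animals. Usp18 was at 2.26 CPM, 4.55 times that median, and Ifit1 at 1.51 CPM, 3.59 times. These genes are among the most strongly interferon-induced known.

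Further members were also highest in this animal. Oasl2 was at 7.38 CPM in X4674 against at most 3.48 CPM in the other Ethanol animals and 3.84 CPM in Control. Irf7 was at 3.49 CPM against at most 2.09 and 2.03 CPM, and Bst2 at 8.35 CPM against at most 5.72 and 5.69 CPM. Oas1a (1.601 CPM), Rsad2 (1.95 CPM) and Mx1 (0.659 CPM) were 3.41, 3.37 and 4.06 times the median of the other Ethanol animals, although the next library was closer: another Ethanol animal reached 1.32 CPM of Oas1a and 0.440 CPM of Mx1, and a Control animal 1.80 CPM of Rsad2.

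Among the called members X4674 was nearer to the other animals. Tap1 in X4674 was 1.10 times, Ifit2 1.09 times and Adar 0.979 times the median of the other Ethanol animals, and Irf9 was 1.15 times, Trim25 1.19 times and Ifitm3 1.48 times. Of these, only Trim25, at 17.8 CPM, was above every other Ethanol animal (at most 17.3 CPM), and it was below the highest Control value (18.8 CPM). The chains H2-D1 (0.971 times), H2-K1 (1.04 times) and B2m (1.09 times) were within the range of the others.

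**Figure D4:**
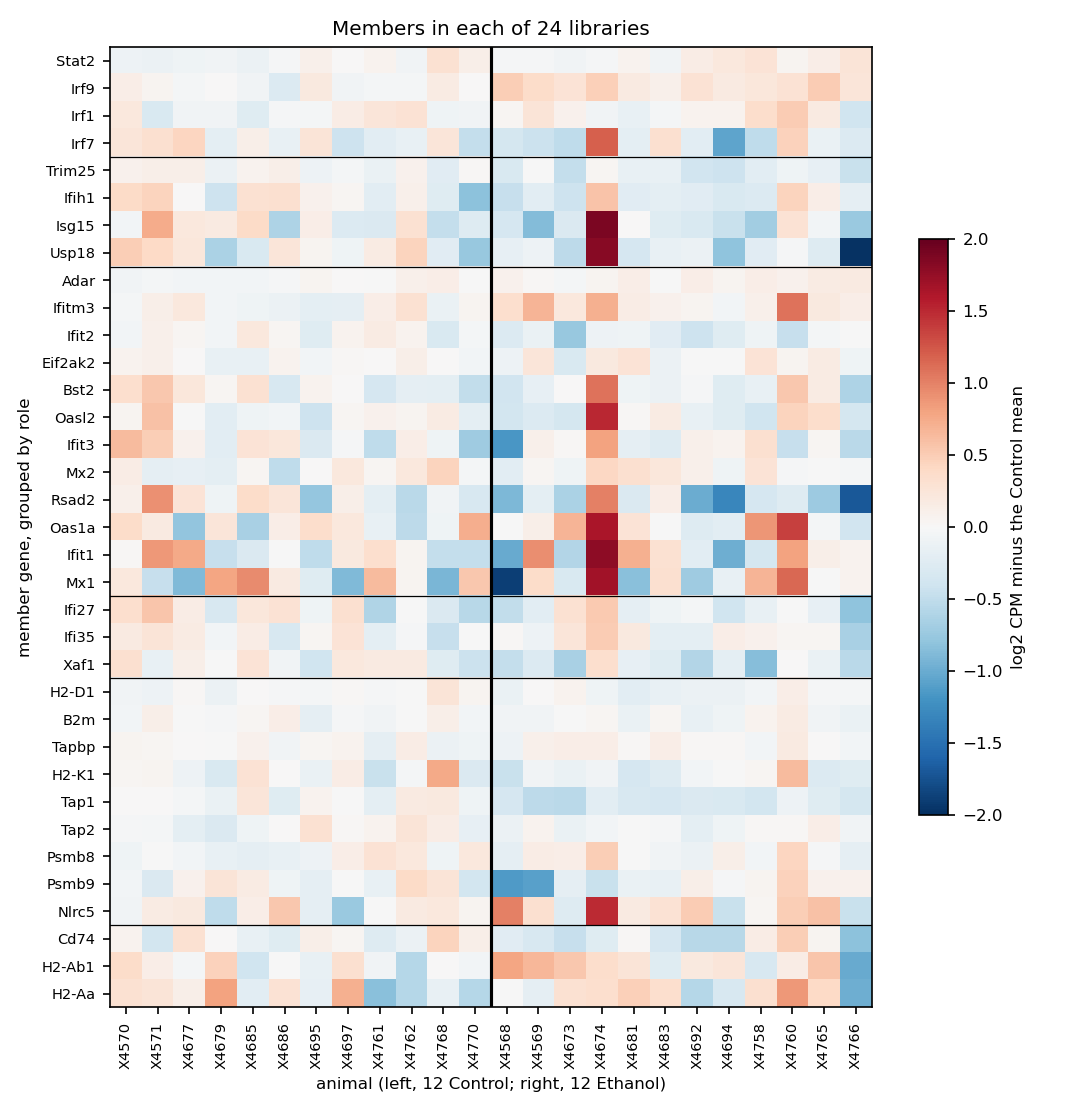
Log2 CPM of each of the 35 members (rows, grouped by role) in each of 24 libraries (columns, 12 Control on the left and 12 Ethanol on the right), as the difference from the Control mean (red higher, blue lower). The column of X4674 is red across most interferon members, with Isg15 and Usp18 among its darkest cells, and pale across H2-D1, B2m and Tapbp.

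**Figure D5:**
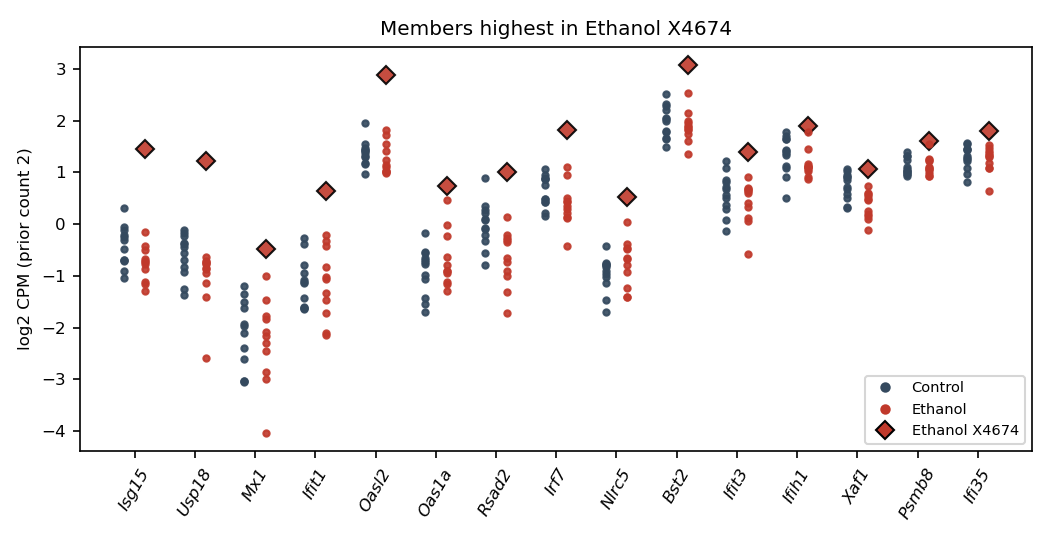
Log2 CPM (prior count 2, y axis) of the 15 members that were highest in Ethanol X4674 (diamonds), beside the other 11 Ethanol animals (red points) and 12 Control animals (dark points). The distance between the diamond and the other animals is widest for Isg15 and Usp18, and small for Xaf1 and Ifih1.

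Outside the members, the same animal was highest in 17 of 50 tested further interferon-stimulated genes, 34% of them, against 3.37% of all genes tested (596 of 17686). Ifi44 was 4.50 times and Iigp1 4.40 times the median of the other Ethanol animals. X4674 was highest in 0 of 22 nucleic acid sensing genes, 0 of 16 microglia markers and 0 of 16 endothelial markers. In lists this short, 0 cannot be told from the 3.37% of all genes. It was highest in 2 of 17 receptor and JAK-STAT genes, 2 of 21 further MHC class I genes and 1 of 12 further MHC class II genes. It was highest in 4 of 12 choroid plexus markers, with Ttr at 5049 CPM. The choroid plexus markers summed to 5474 CPM in X4674 and 5487 CPM in Control X4571, the highest sum of each group. Of the 15 members highest in X4674, X4571 was the highest Control in Isg15, Ifit1, Oasl2, Bst2, Rsad2 and Ifih1. In the others of the 15 another Control was highest. The part of choroid plexus RNA in these values was not tested. Of the 8 members with an ISRE core, 6 were highest in X4674, and of the 19 matched members without one, also 6. X4674 was chosen for its high values in these members, and the share over all genes with an ISRE core was not taken. This split is a description only.

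Leaving X4674 out changed the sign, size or call of several members, in addition to those given above. Because this animal was chosen for its high values, lower fold changes without it follow from the choice in members where it was highest. The p-values given here describe that fit and are not a separate test of ethanol. Isg15 went from a log2 fold change of 0.01 to -0.39 (adjusted p 0.126 by edgeR) and Usp18 from -0.03 to -0.44 (adjusted p 0.132). Rsad2, at -0.69 with an adjusted p of 0.0229, and Xaf1, at -0.39 with an adjusted p of 0.0244, then passed as lower in Ethanol, while Ifitm3 no longer passed (adjusted p 0.0582). Ifih1 went from -0.12 to -0.20 and Ifi35 from 0.02 to -0.03. The count became 2 higher and 5 lower, beside 1600 higher and 1011 lower of 17800 genes in the same fit. The median log2 fold change of the members went from 0.02 to -0.05. Irf9, Tap1 and Trim25 passed with X4674 and without it.

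The spread between animals was set against counting error by a dispersion index, where 1 is counting error alone. The squared deviation of each count from the count its library's depth predicts was divided by that prediction. These values were summed over the animals of a group and divided by the number of animals less 1. The median over the 34 tested members was 2.86 in Control and 6.001 in Ethanol, and 3.94 in Ethanol without X4674. For the interferon members it was 3.36, 7.91 and 4.03 in the same order, and for the antigen presentation members 2.34, 3.35 and 2.95. At the same relative spread the index grows with the count, so the medians of the 2 sets are not compared with each other. The index was not taken over all genes, so whether the wider Ethanol spread is particular to the members was not tested.

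Ethanol X4760 was highest in another set of members, 7 of 35. These were 5 antigen presentation members (B2m, Tapbp, Psmb9, Cd74 and H2-Aa) with Ifitm3 and Irf1. The share of all genes highest in X4760 was not taken, so whether 7 of 35 is unusual was not tested. B2m was at 50.3 CPM in it and Ifitm3 at 21.3 CPM. It also had the highest summed level of the 16 microglia markers, 363 CPM, and the lowest depth of the 24 libraries, and the part of either was not tested.

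The interferons themselves were at or near 0. Of 21 interferon genes, 15 including Ifnb1 had 0 counts in every library, and the other 6 had 33 counts in all, at most 3 in 1 library (Ifng). X4674 had 0 counts of any of them. A floor of 3 counts corresponds to 0.0772 to 0.11 CPM over the libraries and covers counting error only.

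Of 17 tested receptor and JAK-STAT genes outside the members, 3 were higher and 0 lower in Ethanol, beside the 9.07% higher and 5.8% lower of all genes, which are also the shares for the lists that follow. Ptpn6 (SHP-1), a phosphatase of hematopoietic cells that dampens JAK signaling, had a log2 fold change of 0.42 (adjusted p 8.08e-05 by edgeR). Irf8, a factor of microglia and myeloid cells, rose by 0.30 (adjusted p 0.00879), and Cish, a STAT-induced inhibitor, by 0.16 (adjusted p 0.032). The type I receptor chain Ifnar1 had a log2 fold change of 0.00 (adjusted p 0.949).

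Among 22 tested nucleic acid sensing genes 6 were higher and 1 lower. Myd88 and Ticam1, the adaptors of the Toll-like receptors, rose by 0.30 (adjusted p 0.0036) and 0.25 (adjusted p 0.00559) on the log2 scale, and for each the 12 Ethanol values exceeded the Control median. Tlr7, the receptor for single-stranded RNA, rose by 0.38 (adjusted p 0.0149), and Trex1, which degrades cytosolic DNA, by 0.23 (adjusted p 0.0257). Irf5 and Irf3, factors downstream of these sensors, also passed. Traf6, the ubiquitin ligase downstream of Myd88, fell by 0.22 (adjusted p 0.00387).

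The 50 tested further interferon-stimulated genes split into 3 higher and 3 lower, a share near that of all genes. Ifi207, Slfn2 and Ifitm1 had log2 fold changes of 0.86, 0.95 and 0.45 (adjusted p 0.0044, 0.0111 and 0.0285). Parp12, Parp9 and Oas1c had log2 fold changes of -0.20, -0.21 and -0.45 (adjusted p 0.0154, 0.0384 and 0.0398). The median of this list was -0.02.

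Of 21 tested further MHC class I genes 1 was higher and 3 lower. H2-Q4 and H2-Bl, class I heavy chains, had log2 fold changes of -0.27 (adjusted p 0.00715) and -0.42 (adjusted p 0.00759), and Mr1, which presents vitamin metabolites, of -0.20 (adjusted p 0.0453). Rfxank, a subunit of the RFX factor of MHC promoters, had 0.11 (adjusted p 0.0378). The 3 constitutive proteasome catalytic subunits did not pass, with Psmb6 at -0.01 and Psmb7 at -0.04.

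Of 12 tested further MHC class II genes 3 were higher and 0 lower. Ctsl and Lgmn, lysosomal proteases, rose by 0.14 (adjusted p 0.004) and 0.17 (adjusted p 0.00879). Ciita, the transactivator of class II genes, was at 0.302 ± 0.128 CPM in Control and 0.500 ± 0.161 CPM in Ethanol, with a log2 fold change of 0.72 (adjusted p 0.0242) and all 12 Ethanol values over the Control median. The class II chains themselves, as given above, did not pass.

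Some markers of cells that express these pathways passed the test, again beside 9.07% higher and 5.8% lower of all genes. Of 16 microglia markers 5 were higher (among them Tyrobp, 0.39, and C1qa, 0.54, on the log2 scale) and 2 lower (Siglech, -0.77, and P2ry12, -0.53), and 9 did not pass. Their summed level was 215 to 295 CPM in Control and 231 to 363 CPM in Ethanol. Of 10 border macrophage markers 4 were higher, led by Cbr2 (0.79), 0 were lower and 6 did not pass, with sums of 85.7 to 116 CPM in Control and 92.0 to 151 CPM in Ethanol.

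Of 16 endothelial markers 6 were lower, with the smallest p in Eng (-0.33) and Tie1 (-0.23). Of the 16, 8 did not pass and 2 were higher (Ly6c1, 0.60, and Ly6a, 0.85, both of which are also interferon-inducible). The sums of the 16 markers were 581 to 665 CPM in Control and 535 to 608 CPM in Ethanol. Of 11 fibroblast and mural markers 4 were lower (among them Rgs5, -0.23), 0 were higher and 7 did not pass. The sums of these 11 were 840 to 1082 CPM in Control and 727 to 975 CPM in Ethanol. Of 9 astrocyte markers 4 were higher, with Gfap at 0.99, and 1 lower, with sums of 3109 to 3756 CPM and 3383 to 4048 CPM.

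Lymphocyte markers were mostly below the filter. Of 15 lymphocyte and natural killer cell markers 3 had enough reads to be tested and 0 passed, with sums of 2.51 to 3.51 CPM in Control and 1.87 to 3.10 CPM in Ethanol. The T cell chains Cd3e, Cd3d and Cd3g were below the filter, though no marker of the list was at 0 in every library. Of 14 dendritic cell and monocyte markers 7 were tested and 1 was higher (Zbtb46, 0.24), with sums of 45.5 to 75.9 CPM in Control and 56.0 to 77.7 CPM in Ethanol. Of 7 red cell markers 1 was lower (Slc4a1, -1.12), with sums of 63.4 to 252 CPM and 23.8 to 294 CPM, and of 12 choroid plexus markers 0 passed, with sums of 36.02 to 5487 CPM and 45.8 to 5474 CPM. The part of any of these cell types in the changes of the members was not tested.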

How the data were processed

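The deposited table holds estimated counts per gene name for 24 libraries, which the authors made from paired-end poly(A) reads with nf-core/rnaseq. STAR, Salmon, limma and the build GRCm39 are listed in the submitters' processing notes with no versions. The annotation release and whether strand was used are not given in the sources used. The authors analysed log2 CPM with limma, a low-count filter and TMM, by age. That division is not in the labels used here. Of the values 10.9% were further than 0.01 from a whole number, so the counts were rounded. Overlapping and antisense genes cannot be told apart.

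Groups came from the sample titles. Genes passing filterByExpr were fitted with edgeR 4.0.16 (TMM, glmQLFit robust, glmQLFTest) in R 4.3.3, and the SE is the fold change over the square root of F. CPM used TMM-scaled library sizes, and log2 CPM a prior count of 2. Alternatives used DESeq2 1.42.0, limma 3.58.1 and sva 3.50.0, other scalings and filters, runs as a block, a choroid plexus covariate, and leaving out animals, runs and libraries low in Ttr. The fit was tested on simulated data. Ratios were taken on the log2 scale after adding a prior count of 0.5 to each count, and tested with scipy 1.17.1. The members and gene lists were chosen with earlier results of these data known. All members were accounted for; lowest, median and highest values are given for members past the test and, per role, for those of highest mean CPM and smallest p; of other lists up to 4 genes of smallest p per direction are named, or the 2 of highest mean CPM where none passed. Sequences are from RefSeq, GRCm38.p6, not the build of the counts. One gene outside the members is not reported here.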

Additional observations from a re-analysis of the deposited data

How the results depend on the processing

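Of 41 alternatives, none (0) reversed a called member. Irf9 (log2 fold change 0.28 to 0.34), Tap1 (-0.36 to -0.31) and Trim25 (-0.25 to -0.20) passed in every alternative, the last with an adjusted p of up to 0.0489. Ifit2 was lost without Control X4685 (adjusted p 0.0538) or Ethanol X4692 (0.0504) and in 5 of 6 fits without 1 run (up to 0.1). Ifitm3 was lost without any of 9 animals (Ethanol X4568, X4569, X4674 and X4760, Control X4679, X4685, X4686, X4695 and X4697, adjusted p up to 0.0668) and in 4 of 6 fits without 1 run (up to 0.113). Adar was lost without any of 18 animals (up to 0.0997), all but Ethanol X4673, X4674, X4683 and X4694 and Control X4762 and X4768, and in 6 of 6 fits without 1 run (up to 0.129). With no filter Ifitm3 (adjusted p 0.0697) and Adar (0.0687) were lost, and Adar also with limma-trend (0.0504), RLE (0.052) and upper-quartile (0.0743) factors. The count of 3 members higher was 1 with no filter, after dropping the 4 libraries low in Ttr, and without run 1, run 2, run 3 or run 6. Leaving out 1 animal gave 1 to 3 higher members and 2 to 5 lower, the 5 without Ethanol X4674. Over all genes those fits gave 1268 to 1818 higher and 805 to 1438 lower. The 1 member that differed between runs became 7 with no filter and 0 without the libraries low in Ttr. Cd74 passed as lower without run 5 (-0.40, adjusted p 0.0418). Runs as a block called the same 6 members. The labels give the groups no shared replicate numbers.

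Over all genes, 1608 were higher and 1028 lower. The lower count was 662 with no filter, 612 without the libraries low in Ttr and 1582 with 3 surrogate variables, and upper-quartile factors gave 1373 higher and 1396 lower. The ratios, chosen after seeing the data, stayed on the same side of the threshold: Tap1 over Tap2 -0.32 to -0.26, Irf9 over Stat2 0.20 to 0.25, and Tap1 over Psmb9 -0.21 to -0.08. The causes were not tested. Depth left Mx1, at 0 to 21 counts per library, untested.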
